A study of Mus musculus with 6 samples.

Results

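Plasmacytoid dendritic cells (pDCs) and Sirpa+ conventional dendritic cells of the mouse thymus were compared in animals given PBS, from 2 RNA-seq libraries of each subset, which are 4 of the 6 libraries of the series. The 4 libraries were chosen by their titles, so no measured value entered the choice. All came from the thymus of wild type mice whose treatment is given as PBS with 2 weeks. The pDCs had been sorted as cells with low CD11c and with B220, and the Sirpa+ DCs as cells with high CD11c and with Sirpa. The remaining group, pDCs carrying yellow-green fluorescent microspheres (YG+ pDC) from tumour-bearing mice, entered the fit so that its 2 libraries helped to estimate the spread, and is not described. Whether the PBS animals bore tumours, whether a library came from 1 animal or several, and which other gates preceded the sort are not given in the labels. The p-values therefore measure the spread between these libraries, which may be technical.

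Dendritic cells (DCs) take up and present antigen, and in the thymus they help to delete or divert developing T cells that recognise the body's own proteins. pDCs are known for sensing nucleic acids in endosomes through TLR7 and TLR9 and for secreting type I interferon. Their identity rests on the E protein Tcf4, and they share several genes with B lymphocytes. Conventional DCs depend on other regulators, among them Zbtb46, Id2 and Batf3, and are specialised in presenting antigen on MHC class II. Sirpa marks their cDC2 branch, and after maturation they upregulate Ccr7, Fscn1 and costimulatory molecules. A CD11c-high Sirpa+ gate can also hold macrophages, and a B220+ gate can hold B cells, so markers of both are described with the results.

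Gene counts summed to 177844 and 413846 in PBS pDC replicates 1 and 2, and to 261136 and 525418 in PBS Sirpa+ DC replicates 1 and 2. These totals were 0.842% to 2.28% of uniquely placed reads. PBS pDC replicate 1 stood apart from its partner. It had the lowest total, and its log2 CPM (counts scaled to a common library size and composition) correlated with that of PBS pDC replicate 2 at Pearson r = 0.73 across genes, against 0.85 between the Sirpa+ DC libraries. In that library 50.9% of gene counts fell in tested genes that have another gene over part of their exons on the opposite strand, against 34.7% to 41.5% in the other 3. Which strand was counted is not recorded in the labels or files, so counts of overlapping genes are uncertain. Whether the counts of other genes come from their own strand, and hold most of their reads, was not tested either. The ratio of Tsix counts to those of its antisense partner Xist was 3.60 to 20.5 over these 4 libraries, highest in PBS pDC replicate 1. The share of a gene's exon length under an opposite gene is given where it matters. Values are CPM of replicate 1 and then replicate 2, and a count of 0 allows up to 5.98 to 19.1 CPM, depending on the library (3 counts). These limits and the counting intervals below cover counting error only.

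Of 8141 genes tested, 931 (11.4%) differed between the subsets at an adjusted p below 0.05 (edgeR's quasi-likelihood test, Benjamini-Hochberg adjustment). The pDCs were higher for 370 genes (4.54% of those tested) and lower for 561 (6.89%). The groups did not overlap in any of the 931, which with 2 libraries per group all but follows from selection by p. It adds no support to a call, and the share without overlap over all genes tested was not counted. Without PBS pDC replicate 1, 1245 of 9459 genes passed (13.2%), 530 higher (5.60%) and 715 lower (7.56%), and 861 of the 931 were among them. Fewer passed without a Sirpa+ DC library, 316 without replicate 1 and 214 without replicate 2, and a group's main count without each is given beside it. PBS pDC replicate 2 and the YG+ pDC libraries are named where leaving them out moved that count by over 1.5 times or gave calls in the other direction. In all, 164 genes passed in each of the 6 fits that left out 1 library, 55 higher and 109 lower in pDCs. They include Siglech, Ccr9, Ly6d, Klk1, Ets1, Ikzf3, Fcrla, Fscn1, Il1b, Cxcl16, Csf1r and Nfil3, whereas 104 of the 163 called genes named here lost their call in at least 1 of these fits. The median log2 fold change of all genes tested was 0.08. Scaling to a common composition places this centre near 0, so a shift shared by most genes would not be seen. The directions below are relative to that centre. Fold changes are pDC over Sirpa+ DC, each with its standard error.

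**Figure D1:**
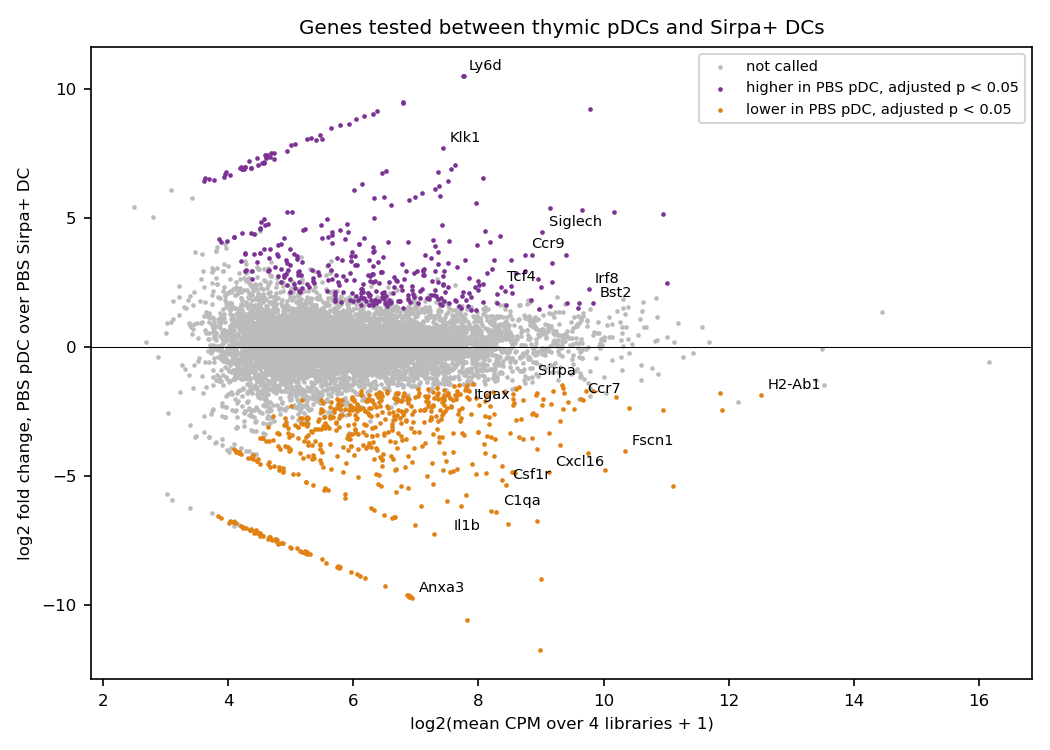
Log2 fold change (pDC over Sirpa+ DC) against log2(mean CPM over the 4 libraries + 1) for the 8141 genes tested, with called genes coloured. The diagonal lines of points at the far left of both sides are genes at 0 in every library of one subset, whose fitted fold change is not a measured size. Siglech, Ccr9, Tcf4 and Irf8 lie above 0, and Fscn1, Il1b, Csf1r and Ccr7 below it.

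Of the 5 genes that mark the sorted cells, the 3 pDC genes differed in the labelled direction and Sirpa and Itgax did not pass the test. Siglech, the surface lectin used to recognise mouse pDCs (chromosome 7, 55768178 to 55778925, GRCm38), stood at 1059 and 928 CPM in pDCs and 46.5 and 43.9 CPM in Sirpa+ DCs. Both pDC libraries lay far above both Sirpa+ DC libraries (log2 fold change 4.45 ± 0.49 (SE), adjusted p = 7.90e-04). Ccr9, the receptor for the thymic chemokine Ccl25, had 702 and 877 CPM in pDCs and 71.9 and 59.8 CPM in Sirpa+ DCs (log2 fold change 3.59 ± 0.48 (SE), adjusted p = 0.00131), although 90.8% of its exon length lies under the body of a gene on the opposite strand. Tcf4 had 376 and 711 CPM in pDCs and 106 and 112 CPM in Sirpa+ DCs (log2 fold change 2.33 ± 0.48 (SE), adjusted p = 0.0109). Bst2, a surface protein that mouse pDCs carry at rest and that interferon induces elsewhere, had 1748 and 1051 CPM in pDCs and 385 and 459 CPM in Sirpa+ DCs (log2 fold change 1.72 ± 0.45 (SE), adjusted p = 0.0302).

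The genes of the surface proteins used in the gates were less clear. Sirpa, an inhibitory receptor, had 575 and 748 CPM in Sirpa+ DCs and 198 and 319 CPM in pDCs. The Sirpa+ DC libraries were both above the pDC libraries, but the difference did not pass (log2 fold change -1.34 ± 0.44, 95% interval -2.30 to -0.38, edgeR adjusted p = 0.0754). Itgax, which encodes CD11c, had 436 and 612 CPM in Sirpa+ DCs and 159 and 266 CPM in pDCs, again without overlap and without passing (edgeR adjusted p = 0.0988, interval -2.27 to -0.29). Ptprc, whose B220 isoform was the pDC gate, had 185 and 1011 CPM in pDCs and 237 and 512 CPM in Sirpa+ DCs. The gene counts do not separate its isoforms, and the groups overlapped.

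**Figure D2:**
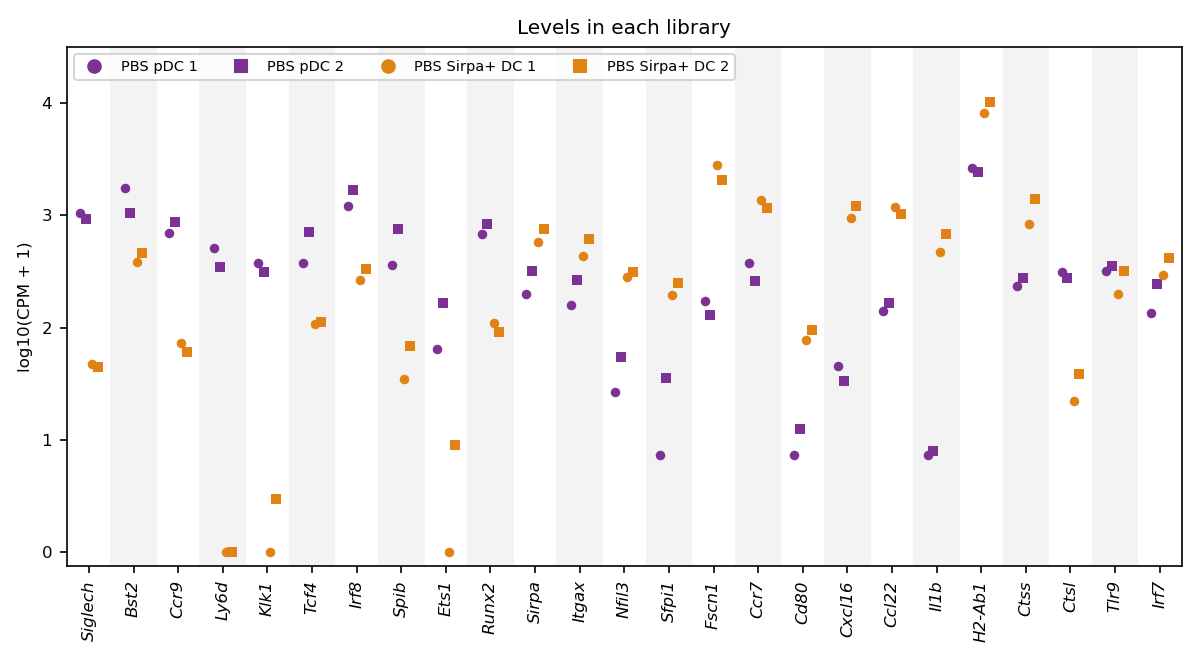
Level of 25 genes in each of the 4 libraries, as log10(CPM + 1), with pDC libraries in purple and Sirpa+ DC libraries in orange, circles for replicate 1 and squares for replicate 2. The pDC points lie above the Sirpa+ DC points from Siglech to Runx2 and for Ctsl, and below them for Fscn1, Ccr7, Ccl22 and Il1b, while the groups of Tlr9 overlap.

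Promoters are shown because the regulators described next bind short DNA motifs. They are those of the listed genes with the smallest p in each direction that had a promoter entry, which Ly6d and Cxcl16 lacked. The 250 bases before the start of Klk1 and Fcrla, both higher in pDCs, and of Il1b and Cacnb3, both lower, are from RefSeq (GRCm38.p6), read 5′ to 3′ on the gene's strand. Capitals mark matches to 6 motifs searched on both strands, which do not overlap each other in these windows.
Klk1 (chr7:44225110-44225359, + strand): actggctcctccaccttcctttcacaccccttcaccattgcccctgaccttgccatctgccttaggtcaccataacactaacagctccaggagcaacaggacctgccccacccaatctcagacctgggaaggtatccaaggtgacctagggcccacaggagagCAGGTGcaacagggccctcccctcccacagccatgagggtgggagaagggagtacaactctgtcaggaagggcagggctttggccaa
Fcrla (chr1:170927584-170927833, - strand): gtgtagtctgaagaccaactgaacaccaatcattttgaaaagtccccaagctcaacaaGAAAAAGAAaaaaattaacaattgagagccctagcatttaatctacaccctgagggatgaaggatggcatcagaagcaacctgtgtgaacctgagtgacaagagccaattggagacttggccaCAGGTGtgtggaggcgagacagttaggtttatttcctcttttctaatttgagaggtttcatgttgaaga
Il1b (chr2:129371140-129371389, - strand): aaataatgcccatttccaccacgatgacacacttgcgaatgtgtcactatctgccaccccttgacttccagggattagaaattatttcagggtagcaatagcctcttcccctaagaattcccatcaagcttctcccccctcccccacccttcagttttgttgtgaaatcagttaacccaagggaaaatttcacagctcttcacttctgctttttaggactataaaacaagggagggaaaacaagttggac
Cacnb3 (chr15:98632078-98632327, + strand): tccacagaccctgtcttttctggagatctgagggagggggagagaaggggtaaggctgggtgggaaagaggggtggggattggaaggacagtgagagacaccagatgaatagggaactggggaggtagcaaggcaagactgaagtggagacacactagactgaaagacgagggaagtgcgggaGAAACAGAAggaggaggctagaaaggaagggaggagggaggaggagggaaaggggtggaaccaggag
Klk1 and Fcrla both hold CAGGTG, the E-box bound by E proteins such as Tcf4, beginning 87 and 69 bases before the start. Fcrla and Cacnb3 hold the interferon response element GAAANNGAA, 192 and 67 bases before it, and Il1b held none of the 6 motifs in this window. Over all genes with a promoter entry, CAGGTG was present in 56 of 255 promoters of genes higher in pDCs (22.0%), 64 of 415 of genes lower in pDCs (15.4%) and 896 of 6127 tested genes (14.6%). The palindromic E-box CAGCTG was in 10.2%, 14.7% and 11.1% of the same sets. GAAANNGAA was in 6.67%, 11.3% and 6.27%, and the kappaB motif GGGNTTTCC in 0.392%, 2.41% and 1.62%. The PU.1 and ETS motif GAGGAAGT was in 4.31%, 3.61% and 2.86%, and the RUNX motif TGTGGT in 13.3%, 12.0% and 10.4%. These shares are descriptions and were not tested, and a match is not a measured binding site.

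Transcription factors that build the pDC lineage were mostly higher in pDCs. Of 13 tested, 7 were higher and 0 lower, with a median log2 fold change of 2.16 (9 higher without PBS pDC replicate 1, and 3 and 3 without Sirpa+ DC replicates 1 and 2). Without PBS pDC replicate 2, 7 were higher and 2 lower, Cbfa2t3 and Tcf3. Ets1 had 63.8 and 164 CPM in pDCs and 0 and 7.97 CPM in Sirpa+ DCs (log2 fold change 4.46 ± 0.78 (SE), adjusted p = 0.00496). Ikzf3, the zinc finger protein Aiolos, had 128 and 141 CPM in pDCs and 8.46 and 5.98 CPM in Sirpa+ DCs (log2 fold change 4.25 ± 0.56 (SE), adjusted p = 0.00128). Spib, an ETS factor of pDCs and B cells, had 357 and 748 CPM in pDCs and 33.9 and 67.8 CPM in Sirpa+ DCs (log2 fold change 3.39 ± 0.54 (SE), adjusted p = 0.00319). In each of these the pDC libraries lay well above both Sirpa+ DC libraries. Runx2, which controls the exit of pDCs from bone marrow, had 676 and 845 CPM in pDCs and 110.0 and 89.7 CPM in Sirpa+ DCs (log2 fold change 2.94 ± 0.47 (SE), adjusted p = 0.00311). Irf8 was the most abundant in counts, with 1199 and 1678 CPM in pDCs and 262 and 335 CPM in Sirpa+ DCs (log2 fold change 2.26 ± 0.45 (SE), adjusted p = 0.00942). Tcf12, an E protein related to Tcf4, had a log2 fold change of 2.11 ± 0.46 (edgeR adjusted p = 0.0151). The rest did not pass. Bcl11a, which acts upstream of Tcf4, had 63.8 and 106 CPM in pDCs and 12.7 and 23.9 CPM in Sirpa+ DCs, with an edgeR adjusted p of 0.0678 over all libraries and 0.0249 without PBS pDC replicate 1. Irf7, the factor that drives interferon transcription in pDCs, had 134 and 243 CPM in pDCs and 292 and 419 CPM in Sirpa+ DCs (interval of the log2 fold change -1.86 to 0.09). Zeb2 and Tcf3 overlapped between the subsets, and Ikzf1 and Cbfa2t3 did not pass.

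Regulators of conventional DCs ran the other way for the most part. Of 17 tested, 10 were lower in pDCs and 1 higher (median -1.77), the same counts as without PBS pDC replicate 1. The lower calls were 6 without PBS pDC replicate 2, and 5 and 2 without Sirpa+ DC replicates 1 and 2. Batf3, required for the cDC1 branch, had 38.1 and 49.8 CPM in Sirpa+ DCs and 0 in both pDC libraries, so it was at least 8.63-fold higher in Sirpa+ DCs. Nfil3 had 279 and 313 CPM in Sirpa+ DCs and 25.5 and 53.2 CPM in pDCs (log2 fold change -2.79 ± 0.47 (SE), adjusted p = 0.00441), and Cebpa, a myeloid factor, 139.6 and 211 CPM in Sirpa+ DCs and 19.1 and 18.5 CPM in pDCs (log2 fold change -3.23 ± 0.59 (SE), adjusted p = 0.00657). The ETS factor PU.1, listed under its older symbol Sfpi1, had 195 and 247 CPM in Sirpa+ DCs and 6.38 and 34.7 CPM in pDCs (log2 fold change -3.15 ± 0.57 (SE), adjusted p = 0.00628). Both Sirpa+ DC libraries were above both pDC libraries for all 4, which adds no support to these calls. Zbtb46, a factor specific to conventional DCs among mononuclear phagocytes, had 71.9 and 109.7 CPM in Sirpa+ DCs and 19.1 and 16.2 CPM in pDCs (log2 fold change -2.41 ± 0.56 (SE), adjusted p = 0.0189). Id2, which blocks E proteins such as Tcf4, had 152 and 109.7 CPM in Sirpa+ DCs and 51.0 and 30.1 CPM in pDCs (log2 fold change -1.77 ± 0.49 (SE), adjusted p = 0.0395). Prdm1, Nr4a3, Rel and Relb were also lower in pDCs, with log2 fold changes of -2.74, -2.62, -1.80 and -1.66. Mycl1, which supports cDC1 proliferation, was the exception at 82.9 and 113 CPM in pDCs and 12.7 and 15.9 CPM in Sirpa+ DCs (log2 fold change 2.75 ± 0.60 (SE), adjusted p = 0.0145). Irf4, the cDC2 regulator, had 166 and 215 CPM in pDCs and 157 and 169 CPM in Sirpa+ DCs (interval -0.65 to 1.12), and Klf4 and Notch2 did not pass.

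**Figure D3:**
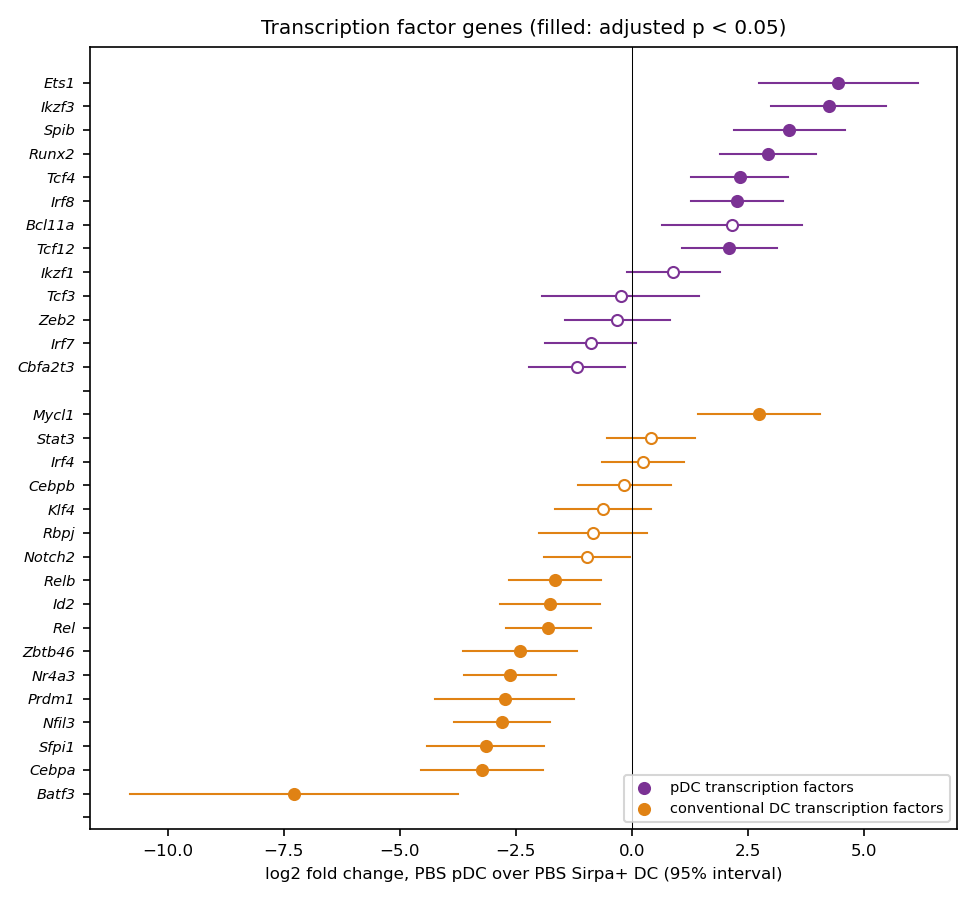
Log2 fold change (pDC over Sirpa+ DC) with its 95% interval for the tested transcription factors of both lists, filled where the adjusted p was below 0.05. From Ets1 to Tcf12 the pDC factors lie above 0, and from Relb to Batf3 the conventional DC factors lie below it. Batf3 was at 0 in both pDC libraries, so its fitted value is not a measured size.

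Surface proteins of pDCs gave 14 genes higher of 18 tested and 0 lower (median 2.77, and 2.57 with members at 0 in 1 subset placed at their bound), and 17 higher without PBS pDC replicate 1. The higher calls were 6 and 6 without Sirpa+ DC replicates 1 and 2, and 9 without either YG+ pDC library. Ly6d, a small membrane-anchored protein of lymphoid progenitors and pDCs, had 510.3 and 347 CPM in pDCs and 0 in both Sirpa+ DC libraries, at least 105-fold higher. Ly6c2 had 631 and 319 CPM in pDCs and 12.7 and 41.9 CPM in Sirpa+ DCs (log2 fold change 3.96 ± 0.60 (SE), adjusted p = 0.00240), and its counts are uncertain because Ly6c1 is nearly identical. Both pDC libraries lay above both Sirpa+ DC libraries for each of these genes. Ptprs, a receptor phosphatase that restrains pDCs, had 861 and 1097 CPM in pDCs and 165 and 177 CPM in Sirpa+ DCs (log2 fold change 2.51 ± 0.44 (SE), adjusted p = 0.00500). Cd8a, which part of mouse pDCs express, had 51.0 and 69.4 CPM in pDCs and 4.23 and 9.97 CPM in Sirpa+ DCs (log2 fold change 2.92 ± 0.62 (SE), adjusted p = 0.0134). The inhibitory receptor gene Lair1 (log2 fold change 1.89 ± 0.51), Havcr1 (2.62 ± 0.69), Epha2 (1.85 ± 0.50) and Tspan13 (1.45 ± 0.41) were higher as well. So were Cd300c and Klra17, with 1 to 3 counts in Sirpa+ DCs and ratios of summed counts of 13.8 (95% counting interval 3.39 to 121) and 14.6 (95% counting interval 4.61 to 74.3). Klra17 belongs to the Ly49 family of near copies. Lifr and Lag3 had edgeR adjusted p of 0.0506 and 0.0733, and 0.00306 and 0.0129 without PBS pDC replicate 1. Il3ra, the interleukin-3 receptor that marks human pDCs, had 31.9 and 11.6 CPM in pDCs and 8.46 and 12.0 CPM in Sirpa+ DCs and overlapped.

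Intracellular and secreted products of pDCs moved the same way, with 16 of 21 tested higher and 0 lower (median 3.46, 17 higher without PBS pDC replicate 1, and 10 and 7 without Sirpa+ DC replicates 1 and 2). Klk1, a secreted kallikrein protease whose promoter is printed above, had 376 and 312 CPM in pDCs and 0 and 1.99 CPM in Sirpa+ DCs. The ratio of its summed counts was 243 (95% counting interval 43.1 to 9651), and the family of near-identical Klk1b genes makes its counts uncertain. Mzb1, an endoplasmic reticulum chaperone partner of antibody- and interferon-secreting cells, had 166 and 164 CPM in pDCs and 0 in both Sirpa+ DC libraries, at least 40.6-fold higher. Dntt, the terminal transferase that marks lymphoid origin, had 102 and 181 CPM in pDCs and 0 in both Sirpa+ DC libraries, at least 34.8-fold higher. Pacsin1, an adaptor known to support interferon output of pDCs, had 153 and 227 CPM in pDCs and 0 and 5.98 CPM in Sirpa+ DCs (ratio of summed counts 51.0 (95% counting interval 17.0 to 251)). The subsets did not overlap in these genes. Blnk, a signalling adaptor, had 249 and 301 CPM in pDCs and 38.1 and 15.9 CPM in Sirpa+ DCs (log2 fold change 3.46 ± 0.53 (SE), adjusted p = 0.00270), Tex2 236 and 484 CPM in pDCs and 38.1 and 45.9 CPM in Sirpa+ DCs (log2 fold change 3.09 ± 0.52 (SE), adjusted p = 0.00424), and Plac8 606 and 456 CPM in pDCs and 42.3 and 81.7 CPM in Sirpa+ DCs (log2 fold change 3.04 ± 0.49 (SE), adjusted p = 0.00319). The glutamate receptor gene Grm8 had 38.3 and 85.6 CPM in pDCs and 0 in both Sirpa+ DC libraries. Cox6a2, a respiratory chain subunit of muscle that pDCs also transcribe, had 95.7 and 92.6 CPM in pDCs and 4.23 and 5.98 CPM in Sirpa+ DCs, but 100% of its exon length lies under Itgad on the opposite strand, which had 759 and 305 CPM in pDCs and 0 and 7.97 CPM in Sirpa+ DCs. Cmah, Atp1b1, Rnase6, Paqr5, Upb1, Smim5 and Ugcg were higher too. The exons of Upb1 and Smim5 lie wholly under opposite genes, and Atp1b1 lies opposite Nme7, which was also higher in pDCs. Kmo, Pltp, Sla2, Spns3 and Rpgrip1 did not pass.

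Few genes of nucleic acid sensing and interferon induction passed the test. Of 20 genes tested, 0 were higher and 1 lower in pDCs by edgeR (DESeq2 and limma-voom also called 0 higher), with 8 at an unadjusted p below 0.05 and a median of -0.12. Without PBS pDC replicate 1, 2 were higher and 1 lower, and without PBS pDC replicate 2, 0 higher and 5 lower. The lower calls were 0 and 0 without Sirpa+ DC replicates 1 and 2. In a fit of only genes with no opposite-strand gene, 2 of 10 members were higher and 2 lower. With no filter, 1 of 24 was higher and 1 lower. The called shares of the main fit were no higher than those of all genes tested (4.54% and 6.89%). Tlr9, the DNA receptor, had 319 and 352 CPM in pDCs and 199 and 321 CPM in Sirpa+ DCs, with overlapping groups and an interval of -0.56 to 1.28 on the log2 scale. Tlr7, the RNA receptor, had 51.0 and 162 CPM in pDCs and 12.7 and 49.8 CPM in Sirpa+ DCs, and passed without PBS pDC replicate 1 (edgeR adjusted p = 0.00948) but not with it (0.119). Unc93b1, which carries these receptors to endosomes, had 568 and 715 CPM in pDCs and 241 and 359 CPM in Sirpa+ DCs (edgeR adjusted p = 0.136, and 0.0435 without PBS pDC replicate 1). The interferon genes Ifnb1, Ifna4 and Ifna2 had no count in any of the 4 libraries. Traf6, the ubiquitin ligase downstream of both receptors, was the gene that passed in the main fit, with 157 and 128 CPM in Sirpa+ DCs and 12.8 and 46.3 CPM in pDCs (log2 fold change -2.04 ± 0.53 (SE), adjusted p = 0.0297). Of 7 tested genes for receptors of bacterial surface products, 2 were lower in pDCs (1 and 0 without Sirpa+ DC replicates 1 and 2). Tlr2 had 220.0 and 265 CPM in Sirpa+ DCs and 6.38 and 34.7 CPM in pDCs (log2 fold change -3.28 ± 0.65 (SE), adjusted p = 0.00895) and its partner Cd14 106 and 128 CPM in Sirpa+ DCs and 0 and 11.6 CPM in pDCs (log2 fold change -3.82 ± 0.89 (SE), adjusted p = 0.0194).

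Signalling proteins of the B cell receptor type, which pDCs use behind Siglech and related receptors, gave 6 of 17 higher and 1 lower (median 0.97, higher calls 5 and 2 without Sirpa+ DC replicates 1 and 2). Cd79b had 121 and 106 CPM in pDCs and 8.46 and 9.97 CPM in Sirpa+ DCs (log2 fold change 3.54 ± 0.54 (SE), adjusted p = 0.00240). Malt1, a protease that carries antigen receptor signals to NF-kB, was lower in pDCs at 626 and 582 CPM in Sirpa+ DCs and 134 and 159.7 CPM in pDCs (log2 fold change -2.03 ± 0.41 (SE), adjusted p = 0.0109). Tyrobp, the DAP12 adaptor of Siglech, had 938 and 396 CPM in pDCs and 220.0 and 193 CPM in Sirpa+ DCs and missed the threshold at 0.0527. Btk and Plcg2 overlapped between the subsets, and Syk did not pass. In the secretory pathway 1 of 29 genes was higher, Xbp1, the factor that expands the endoplasmic reticulum, with 893 and 798 CPM in pDCs and 334 and 233 CPM in Sirpa+ DCs (log2 fold change 1.58 ± 0.44 (SE), adjusted p = 0.0414). Sdf2l1, a chaperone cofactor, was the 1 gene that was lower (log2 fold change -1.74 ± 0.41 (SE), adjusted p = 0.0208). With 1 of 29 called each way, the shares were below those of all genes tested (4.54% and 6.89%). Both calls were lost without either Sirpa+ DC library and without either YG+ pDC library, and 3 genes were higher without PBS pDC replicate 2.

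B cell markers were higher in the pDC libraries, beside the pDC genes above. Of 21 markers, 13 were tested, 11 were higher and 0 lower (median 7.35, and 4.0 with members at 0 in 1 subset placed at their bound). Without PBS pDC replicate 1 the count was again 11, and it was 10 and 7 without Sirpa+ DC replicates 1 and 2. Their summed level was 1422 and 1625 CPM in pDCs and 296 and 187 CPM in Sirpa+ DCs. Pax5, the B lineage commitment factor, had 31.9 and 62.5 CPM in pDCs and 0 in both Sirpa+ DC libraries, at least 11.6-fold higher. Ms4a1, which encodes CD20 and whose exons lie wholly under an opposite gene, had 63.8 and 92.6 CPM in pDCs and 0 in both Sirpa+ DC libraries. Pax5 and Ms4a1 were absent from the counts of both Sirpa+ DC libraries. Fcrla, an intracellular receptor-like protein of germinal centre B cells and pDCs, had 281 and 213 CPM in pDCs and 4.23 and 3.99 CPM in Sirpa+ DCs (ratio of summed counts 56.8 (95% counting interval 19.0 to 279)). Cd79a, Cd79b, Blk and Bank1 are on both this list and the signalling list. Cd22 and Cr2 had overlapping groups, Ebf1 had 19.1 and 11.6 CPM in pDCs and 8.46 and 1.99 CPM in Sirpa+ DCs, and Vpreb1 had no count. What part B cells in the B220+ gate had in the pDC results was not tested. Fewer cells of a type and less RNA per cell cannot be told apart in these bulk sorts.

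T cell markers were tested because thymocytes surround both subsets. Of 21 markers 7 were tested and 3 were higher in pDCs (1 and 1 without Sirpa+ DC replicates 1 and 2), with summed levels of 1569 and 1099 CPM in pDCs and 914 and 524 CPM in Sirpa+ DCs. Cd8b1 had 262 and 199 CPM in pDCs and 4.23 and 3.99 CPM in Sirpa+ DCs (ratio of summed counts 53.0 (95% counting interval 17.7 to 261)), and Lck, the kinase that binds CD4 and CD8, 70.2 and 53.2 CPM in pDCs and 4.23 and 5.98 CPM in Sirpa+ DCs (log2 fold change 3.42 ± 0.71 (SE), adjusted p = 0.0113). Cd8a, given above, was the other. The defining markers Cd3e, Cd3g and Ptcra had no count in any library, and Cd3d had 0 and 4.63 CPM in pDCs and 25.4 and 0 CPM in Sirpa+ DCs. Among NK cell markers, 0 of 2 tested were higher and 0 lower by edgeR, DESeq2 and limma-voom, with 1 at an unadjusted p below 0.05 in edgeR. In a fit of only genes with no opposite-strand gene, 1 of 2 was higher.

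Macrophage markers were higher in the Sirpa+ DC libraries. Of 18 markers 13 were tested, 11 were lower in pDCs and 0 higher (median -4.85, and -3.36 with members at 0 in 1 subset placed at their bound). The lower calls were 7 and 4 without Sirpa+ DC replicates 1 and 2. Their summed level was 982 and 805 CPM in pDCs and 5365 and 8360.0 CPM in Sirpa+ DCs. C1qa, C1qb and C1qc, the complement chains made by tissue macrophages, had 449 and 779.5, 322 and 540.3 and 546 and 911 CPM in Sirpa+ DCs. The same 3 genes had 12.8 and 4.63, 25.5 and 0 and 57.4 and 6.94 CPM in pDCs. Csf1r, the growth factor receptor of macrophages, had 546 and 803 CPM in Sirpa+ DCs and 25.5 and 11.6 CPM in pDCs (log2 fold change -5.36 ± 0.63 (SE), adjusted p = 8.11e-04). Mertk, the receptor for apoptotic cells, had 46.5 and 57.8 CPM in Sirpa+ DCs and 0 in both pDC libraries. Apoe was abundant in both subsets, at 2471 and 4185 CPM in Sirpa+ DCs and 669.7 and 569 CPM in pDCs (log2 fold change -2.43 ± 0.54 (SE), adjusted p = 0.0160). Fcgr1 and Timd4 were too low to be tested, at 16.9 and 14.0 and 12.7 and 21.9 CPM in Sirpa+ DCs. Lyz2, from the monocyte list, had 1473 and 2546 CPM in Sirpa+ DCs and 134 and 27.8 CPM in pDCs (log2 fold change -4.78 ± 0.78 (SE), adjusted p = 0.00348), with a near-identical partner in Lyz1. On that list of 13 monocyte and granulocyte markers, Cd14 was also lower in pDCs and Plac8 was higher. Its other tested members were not called, and 7 were not tested. What part macrophages in the Sirpa+ gate had in the results that follow was not tested. Epcam, an epithelial adhesion protein also present on DCs, had 118 and 102 CPM in Sirpa+ DCs and 6.38 and 11.6 CPM in pDCs (log2 fold change -3.42 ± 0.60 (SE), adjusted p = 0.00518), while Foxn1, Krt14 and Ccl25 of thymic epithelium had no count. Cdh5, an endothelial cadherin, was higher in pDCs at 115 and 176 CPM in pDCs and 16.9 and 7.97 CPM in Sirpa+ DCs (log2 fold change 3.69 ± 0.59 (SE), adjusted p = 0.00311), with the endothelial gene Tie1 at 0 in all 4 libraries.

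**Figure D4:**
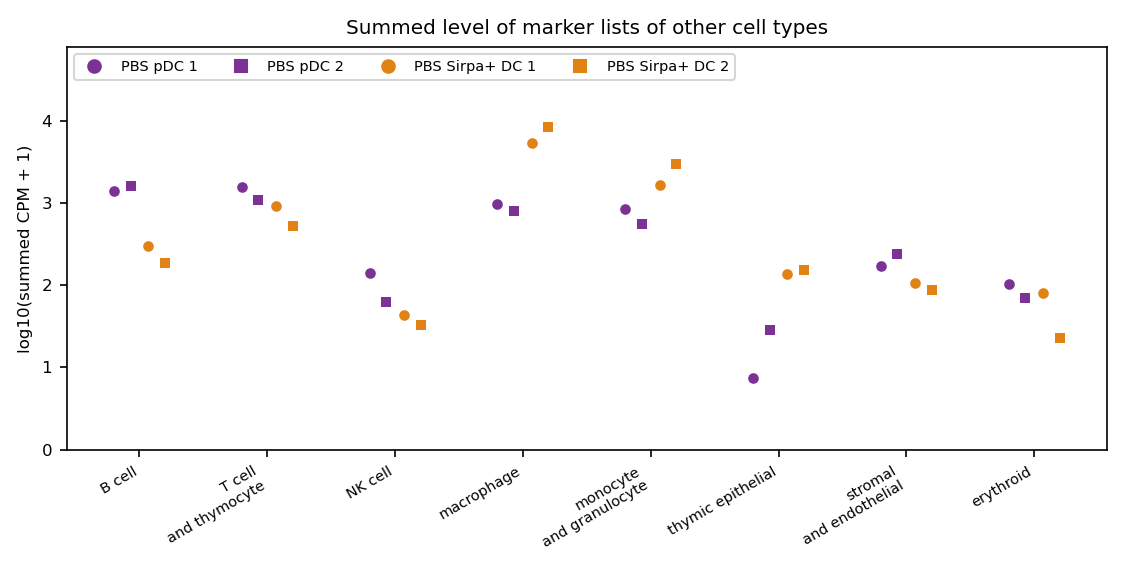
Summed level of each marker list of other cell types in each library, as log10(summed CPM + 1). The B cell sums of the pDC libraries (purple) lie above those of the Sirpa+ DC libraries (orange), and the macrophage and thymic epithelial sums lie below them. Most of the thymic epithelial sum in each Sirpa+ DC library is Epcam, the 1 tested gene of 13 on that list.

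Marker genes of both conventional DC branches were in part lower in pDCs. Among cDC2 markers 5 of 14 were lower and 1 higher (median -1.22, lower calls 4 and 3 without Sirpa+ DC replicates 1 and 2). Tmem176a and Tmem176b, neighbouring membrane protein genes, had 178 and 213 CPM in Sirpa+ DCs and 6.38 and 0 CPM in pDCs and 305 and 423 CPM in Sirpa+ DCs and 19.1 and 23.1 CPM in pDCs. Cx3cr1, the fractalkine receptor, had 144 and 169 CPM in Sirpa+ DCs and 0 and 13.9 CPM in pDCs (log2 fold change -3.99 ± 0.66 (SE), adjusted p = 0.00391), and Mgl2, a lectin of cDC2s, 93.1 and 201 CPM in Sirpa+ DCs and 31.9 and 0 CPM in pDCs (log2 fold change -3.90 ± 1.02 (SE), adjusted p = 0.0315). Clec10a, the near copy of Mgl2, was higher in pDCs at 102 and 171 CPM in pDCs and 42.3 and 31.9 CPM in Sirpa+ DCs (log2 fold change 1.95 ± 0.47 (SE), adjusted p = 0.0231). Its call was lost without any 1 of PBS pDC replicate 2, the Sirpa+ DC libraries and the YG+ pDC libraries. Itgam, which encodes CD11b, was low everywhere, at 25.5 and 4.63 CPM in pDCs and 25.4 and 9.97 CPM in Sirpa+ DCs. Among cDC1 markers 5 of 12 were lower and 0 higher (median -2.10, lower calls 1 and 2 without Sirpa+ DC replicates 1 and 2). Clec9a, a receptor for dead cells, had 322 and 237 CPM in Sirpa+ DCs and 19.1 and 57.9 CPM in pDCs (log2 fold change -2.68 ± 0.53 (SE), adjusted p = 0.00887). Xcr1, the chemokine receptor of cDC1s, had 84.6 and 69.8 CPM in Sirpa+ DCs and 25.5 and 2.31 CPM in pDCs (log2 fold change -2.96 ± 0.84 (SE), adjusted p = 0.0442), and Itgae, which encodes CD103, 131 and 148 CPM in Sirpa+ DCs and 12.8 and 9.26 CPM in pDCs (log2 fold change -3.72 ± 0.56 (SE), adjusted p = 0.00240). These cDC1 genes were higher in libraries sorted for Sirpa, the marker of the other branch.

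Genes of DC maturation and migration were lower in pDCs, 13 of 21 tested with 0 higher (median -2.63), and 13 of 22 without PBS pDC replicate 1. The lower calls were 9 and 6 without Sirpa+ DC replicates 1 and 2. Fscn1, the actin bundler of mature DCs, had 2827 and 2081 CPM in Sirpa+ DCs and 172 and 129.6 CPM in pDCs (log2 fold change -4.04 ± 0.49 (SE), adjusted p = 8.96e-04). Ccr7, which guides mature DCs along Ccl19 and Ccl21, had 1371 and 1168 CPM in Sirpa+ DCs and 376 and 257 CPM in pDCs (log2 fold change -2.02 ± 0.45 (SE), adjusted p = 0.0162). Cacnb3, a calcium channel subunit whose promoter is printed above, had 474 and 347 CPM in Sirpa+ DCs and 12.8 and 2.31 CPM in pDCs, a ratio of summed counts of 76.1 (95% counting interval 25.8 to 371). Every one of these was higher in both Sirpa+ DC libraries. Anxa3 had 224 and 263 CPM in Sirpa+ DCs and 0 in both pDC libraries, at least 47.8-fold higher, and Apol7c 249.7 and 245 CPM in Sirpa+ DCs and 6.38 and 0 CPM in pDCs. Zmynd15 had the highest counts of the list, 5670.1 and 2989 CPM in Sirpa+ DCs and 204 and 23.1 CPM in pDCs, and lies opposite Cxcl16, so the 2 genes' counts may be mixed. Marcksl1, Serpinb9, Serpinb6b, Tmem123, Socs2, Gadd45b and Tmem150c were also lower in pDCs.

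Costimulatory and inhibitory molecules followed, with 7 of 15 lower and 0 higher in pDCs (median -1.87, lower calls 4 and 1 without Sirpa+ DC replicates 1 and 2). Cd80, a ligand of CD28, had 76.2 and 93.7 CPM in Sirpa+ DCs and 6.38 and 11.6 CPM in pDCs (log2 fold change -3.07 ± 0.63 (SE), adjusted p = 0.0111), and Cd40, the receptor for T cell help, 84.6 and 65.8 CPM in Sirpa+ DCs and 6.38 and 11.6 CPM in pDCs (log2 fold change -2.87 ± 0.63 (SE), adjusted p = 0.0156). Icosl, the ligand of ICOS, had 139.6 and 177 CPM in Sirpa+ DCs and 38.3 and 20.8 CPM in pDCs (log2 fold change -2.55 ± 0.50 (SE), adjusted p = 0.00883). Cd274, which encodes PD-L1, had 292 and 279 CPM in Sirpa+ DCs and 89.3 and 69.4 CPM in pDCs (log2 fold change -1.87 ± 0.45 (SE), adjusted p = 0.0218). Havcr2, which encodes TIM-3, had 220.0 and 285 CPM in Sirpa+ DCs and 25.5 and 13.9 CPM in pDCs (log2 fold change -3.82 ± 0.53 (SE), adjusted p = 0.00159). Tnfrsf4 and Slamf7 were lower as well. Cd86 had 233 and 277 CPM in Sirpa+ DCs and 89.3 and 99.5 CPM in pDCs and Cd83 537 and 698 CPM in Sirpa+ DCs and 204 and 264 CPM in pDCs, both without overlap, and neither passed (edgeR adjusted p = 0.0613 and 0.0669).

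Most tested genes of secreted signals were higher in the Sirpa+ DC libraries, but 11 of 19 listed chemokine genes and 11 of 20 listed cytokine genes were not tested. A gene could pass the filter through the group where it was high, so the counts and medians below describe tested members only. Among chemokine genes 6 of 8 tested were lower in pDCs and 1 higher (median -3.67), and 5 and 0 without PBS pDC replicate 1. The lower calls were 3 and 3 without Sirpa+ DC replicates 1 and 2. Cxcl16 had 939 and 1220.2 CPM in Sirpa+ DCs and 44.6 and 32.4 CPM in pDCs (log2 fold change -4.85 ± 0.51 (SE), adjusted p = 7.81e-04). Ccl22 and Ccl17, the ligands of Ccr4 on thymocytes and regulatory T cells, had 1189 and 1035 CPM in Sirpa+ DCs and 140.3 and 164 CPM in pDCs and 84.6 and 61.8 CPM in Sirpa+ DCs and 0 in both pDC libraries. Ccl5 had 212 and 177 CPM in Sirpa+ DCs and 6.38 and 6.94 CPM in pDCs (log2 fold change -4.78 ± 0.63 (SE), adjusted p = 0.00119). Ccl4 was the exception, with 714 and 197 CPM in pDCs and 50.8 and 108 CPM in Sirpa+ DCs, and rested on the first pDC library (edgeR adjusted p = 0.0323, and 0.0979 without it). Among cytokine genes 5 of 9 were lower and 0 higher (lower calls 3 without PBS pDC replicate 2 and 2 and 2 without Sirpa+ DC replicates 1 and 2, median -3.36, and -2.65 with members at 0 in 1 subset placed at their bound). Il1b had 474 and 686 CPM in Sirpa+ DCs and 6.38 and 6.94 CPM in pDCs (log2 fold change -6.36 ± 0.59 (SE), adjusted p = 6.91e-04), with 27.3% of its exon length under an opposite gene, and its natural antagonist Il1rn 127 and 146 CPM in Sirpa+ DCs and 0 and 18.5 CPM in pDCs (log2 fold change -3.41 ± 0.84 (SE), adjusted p = 0.0244). Osm, a cytokine of the interleukin-6 family, had 182 and 281 CPM in Sirpa+ DCs and 12.8 and 9.26 CPM in pDCs (log2 fold change -4.46 ± 0.66 (SE), adjusted p = 0.00220). Il12b had 33.9 and 29.9 CPM in Sirpa+ DCs and 0 in both pDC libraries, at least 6.26-fold higher. Tnf had 76.5 and 53.2 CPM in pDCs and 4.23 and 29.9 CPM in Sirpa+ DCs and did not pass.

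Some receptors for migration were higher in one subset and some in the other. Of 16 chemoattractant receptors, 2 were higher in pDCs and 5 lower (3 lower without PBS pDC replicate 2, and 3 and 1 without Sirpa+ DC replicates 1 and 2). Ccr6 joined Ccr9 on the pDC side with 19.1 and 81.0 CPM in pDCs and 4.23 and 9.97 CPM in Sirpa+ DCs (log2 fold change 2.79 ± 0.76 (SE), adjusted p = 0.0363). Cx3cr1, Ccr7 and Xcr1 were on the other side, with Ccrl2 at 76.2 and 134 CPM in Sirpa+ DCs and 19.1 and 4.63 CPM in pDCs and the chemerin receptor Cmklr1 at 55.0 and 118 CPM in Sirpa+ DCs and 6.38 and 11.6 CPM in pDCs. Cxcr3 had 44.6 and 37.0 CPM in pDCs and 0 and 9.97 CPM in Sirpa+ DCs and did not pass. Most cytokine receptors did not pass, and the called shares were near those of all genes. Of 28 tested, 2 were higher and 3 lower, and 4 and 6 without PBS pDC replicate 1. Without PBS pDC replicate 2, 2 were higher and 6 lower. The higher calls were 2 and 1 without Sirpa+ DC replicates 1 and 2, and the lower calls 1 and 1 without Sirpa+ DC replicates 1 and 2. Il2rb, a chain of the interleukin-2 and interleukin-15 receptors, had 89.3 and 83.3 CPM in pDCs and 0 in both Sirpa+ DC libraries, at least 21.2-fold higher. Tnfrsf13c, the receptor for the survival factor BAFF, had 38.3 and 78.7 CPM in pDCs and 0 and 1.99 CPM in Sirpa+ DCs (ratio of summed counts 50.1 (95% counting interval 8.49 to 2029)). Csf2ra, a chain of the GM-CSF receptor, was lower in pDCs at 254 and 261 CPM in Sirpa+ DCs and 82.9 and 50.9 CPM in pDCs (log2 fold change -2.01 ± 0.44 (SE), adjusted p = 0.0157). Flt3, the receptor on which both subsets depend, had 210.5 and 146 CPM in pDCs and 186 and 203 CPM in Sirpa+ DCs, with an interval of -1.05 to 0.74.

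Of 14 integrin genes 1 was higher in pDCs and 3 lower (2 and 2 without Sirpa+ DC replicates 1 and 2). Over all genes tested, 4.54% were higher and 6.89% lower. Itgal, the alpha chain of LFA-1, had 364 and 502 CPM in pDCs and 46.5 and 109.7 CPM in Sirpa+ DCs (log2 fold change 2.42 ± 0.50 (SE), adjusted p = 0.0109), while its partner chain Itgb2 had 325 and 338 CPM in pDCs and 284 and 407 CPM in Sirpa+ DCs and overlapped. Itgb5, which pairs with Itgav in the uptake of apoptotic cells, had 262 and 269 CPM in Sirpa+ DCs and 6.38 and 2.31 CPM in pDCs (ratio of summed counts 78.6 (95% counting interval 21.5 to 654)), and Itga5, a fibronectin receptor chain, 63.5 and 73.8 CPM in Sirpa+ DCs and 0 and 11.6 CPM in pDCs (log2 fold change -3.07 ± 0.86 (SE), adjusted p = 0.0408). C-type lectin receptors gave 7 lower and 2 higher of 15 (lower calls 3 without PBS pDC replicate 2, and 1 and 2 without Sirpa+ DC replicates 1 and 2). Clec7a, the beta-glucan receptor Dectin-1, had 876 and 951 CPM in Sirpa+ DCs and 115 and 20.8 CPM in pDCs (log2 fold change -3.94 ± 0.70 (SE), adjusted p = 0.00536). Clec4n and Clec4e, which pair with an ITAM adaptor to sense fungi and mycobacteria, had 42.3 and 57.8 and 110.0 and 37.9 CPM in Sirpa+ DCs against 0 and 0 and 12.8 and 2.31 CPM in pDCs. Cd69, which holds cells in tissue by blocking S1pr1, was higher in pDCs at 185 and 211 CPM in pDCs and 16.9 and 23.9 CPM in Sirpa+ DCs (log2 fold change 3.21 ± 0.49 (SE), adjusted p = 0.00257).

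Several MHC class II genes were lower in pDCs but abundant in both subsets. Of 16 genes tested, 5 were lower and 1 higher (median -0.90, lower calls 2 and 0 without Sirpa+ DC replicates 1 and 2, and 3 without either YG+ pDC library). H2-Eb1 had 5492 and 7339 CPM in Sirpa+ DCs and 1059 and 1308 CPM in pDCs (log2 fold change -2.44 ± 0.44 (SE), adjusted p = 0.00632). H2-Ab1 had 8179 and 10299.5 CPM in Sirpa+ DCs and 2634 and 2435 CPM in pDCs (log2 fold change -1.87 ± 0.43 (SE), adjusted p = 0.0192), and H2-Aa 4849 and 6619 CPM in Sirpa+ DCs and 1971 and 1396 CPM in pDCs (log2 fold change -1.77 ± 0.44 (SE), adjusted p = 0.0255). Cd74, the invariant chain, had 16295 and 18256 CPM in Sirpa+ DCs and 7424 and 5226 CPM in pDCs and missed the threshold at 0.0568, passing without PBS pDC replicate 1 (0.00917, edgeR adjusted p). The proteases that trim the invariant chain went in opposite directions. Ctss, the protease of most antigen-presenting cells, had 829 and 1409.6 CPM in Sirpa+ DCs and 236 and 278 CPM in pDCs (log2 fold change -2.12 ± 0.46 (SE), adjusted p = 0.0136). Ctsl, which takes that role in thymic cortical epithelium, had 313 and 278 CPM in pDCs and 21.2 and 37.9 CPM in Sirpa+ DCs (log2 fold change 3.23 ± 0.48 (SE), adjusted p = 0.00217), with 30.4% of its exon length under an opposite gene. Ciita, the master regulator of the class II genes, had 284 and 331 CPM in Sirpa+ DCs and 166 and 227 CPM in pDCs and did not pass (interval -1.54 to 0.27, 71.2% of exon length under an opposite gene). In the MHC class I pathway 0 of 15 genes were higher and 0 lower by edgeR, DESeq2 and limma-voom, with 1 at an unadjusted p below 0.05 in edgeR. H2-K1 had 2443 and 2309.7 CPM in pDCs and 2044 and 2123 CPM in Sirpa+ DCs.

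Lysosomal genes gave 7 lower and 1 higher of 23 (lower calls 4 and 1 without Sirpa+ DC replicates 1 and 2). Cd63, a membrane protein of lysosomes and exosomes, had 385 and 347 CPM in Sirpa+ DCs and 25.5 and 6.94 CPM in pDCs (log2 fold change -4.79 ± 0.61 (SE), adjusted p = 0.00109), and Ctsd, an aspartic protease, 529 and 887 CPM in Sirpa+ DCs and 134 and 78.7 CPM in pDCs (log2 fold change -2.78 ± 0.51 (SE), adjusted p = 0.00645). Lgmn, an asparagine-specific protease, had 516 and 718 CPM in Sirpa+ DCs and 134 and 139 CPM in pDCs (log2 fold change -2.18 ± 0.47 (SE), adjusted p = 0.0137). Ctsb and Psap overlapped between the subsets. The 1 of 23 higher was near the share of all genes tested that were higher (4.54%). Actin and membrane-cortex genes gave 11 of 26 lower and 0 higher (median -1.14, lower calls 6 and 3 without Sirpa+ DC replicates 1 and 2). Vim, the intermediate filament protein, had 2086 and 2436 CPM in Sirpa+ DCs and 376 and 505 CPM in pDCs (log2 fold change -2.35 ± 0.44 (SE), adjusted p = 0.00687), and Tmsb4x, which binds actin monomers, 1494 and 2217 CPM in Sirpa+ DCs and 549 and 419 CPM in pDCs (log2 fold change -1.95 ± 0.44 (SE), adjusted p = 0.0176). Marcks, a membrane-bound actin organiser, had 309 and 385 CPM in Sirpa+ DCs and 57.4 and 57.9 CPM in pDCs (log2 fold change -2.59 ± 0.46 (SE), adjusted p = 0.00576). Coro1a and Cfl1 had groups that overlapped.

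NF-kB genes gave 6 of 19 lower and 0 higher in pDCs (median -0.84, lower calls 3 and 2 without Sirpa+ DC replicates 1 and 2). Ptgs2, the inducible prostaglandin synthase, had 190.4 and 203 CPM in Sirpa+ DCs and 6.38 and 0 CPM in pDCs (ratio of summed counts 117 (95% counting interval 20.7 to 4665)). Traf1 had 334 and 293 CPM in Sirpa+ DCs and 70.2 and 97.2 CPM in pDCs (log2 fold change -1.86 ± 0.42 (SE), adjusted p = 0.0171). Nfkb1 and Rela did not pass. In lipid handling 4 of 18 were lower and 0 higher (2 and 1 without Sirpa+ DC replicates 1 and 2). Fabp5, a fatty acid carrier, had 135 and 289 CPM in Sirpa+ DCs and 0 and 6.94 CPM in pDCs, and Plin2, which coats lipid droplets, 135 and 149.5 CPM in Sirpa+ DCs and 0 and 13.9 CPM in pDCs (log2 fold change -3.85 ± 0.79 (SE), adjusted p = 0.0111). Of 14 glycolytic genes, 2 were lower and 0 higher (lower calls 4 without PBS pDC replicate 2, and 2 and 1 without Sirpa+ DC replicates 1 and 2). Hk2, the inducible hexokinase, had 402 and 405 CPM in Sirpa+ DCs and 51.0 and 76.4 CPM in pDCs (log2 fold change -2.61 ± 0.46 (SE), adjusted p = 0.00547), and Pfkfb3, which activates phosphofructokinase, 487 and 534 CPM in Sirpa+ DCs and 70.2 and 60.2 CPM in pDCs (log2 fold change -2.99 ± 0.46 (SE), adjusted p = 0.00257). Ldha had 434 and 409.6 CPM in pDCs and 368 and 423 CPM in Sirpa+ DCs, with overlapping groups. Beside the 2 of 14 glycolytic genes, 6.89% of all genes tested were lower in pDCs.

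Interferon-stimulated genes gave 5 lower and 1 higher of 23 (median -0.70, lower calls 3 without PBS pDC replicate 2, and 0 and 0 without Sirpa+ DC replicates 1 and 2). Isg15, a ubiquitin-like protein, had 76.2 and 77.8 CPM in Sirpa+ DCs and 6.38 and 9.26 CPM in pDCs (log2 fold change -3.16 ± 0.66 (SE), adjusted p = 0.0121). Rsad2, the antiviral protein viperin, had 55.0 and 77.8 CPM in Sirpa+ DCs and 6.38 and 11.6 CPM in pDCs (log2 fold change -2.73 ± 0.72 (SE), adjusted p = 0.0317), and the oligoadenylate synthase genes Oas1a, Oas2 and Oas3 were lower with log2 fold changes of -2.42, -2.24 and -1.77. Bst2 was the gene that was higher, and its call was lost without either Sirpa+ DC library and without either YG+ pDC library. The 1 of 23 higher was near the share of all genes tested that were higher (4.54%). The groups of Mx1 overlapped. Cell cycle genes gave 0 higher and 1 lower of 13, near the lower share of all genes tested (6.89%). The 1 called was Ccnb2 (log2 fold change -2.04 ± 0.57 (SE), adjusted p = 0.0406). That call was lost without any 1 of PBS pDC replicate 2, the Sirpa+ DC libraries and the YG+ pDC libraries, while 2 genes were lower without PBS pDC replicate 1. Mki67, the proliferation antigen, had 242 and 363 CPM in pDCs and 292 and 259 CPM in Sirpa+ DCs.

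**Figure D5:**
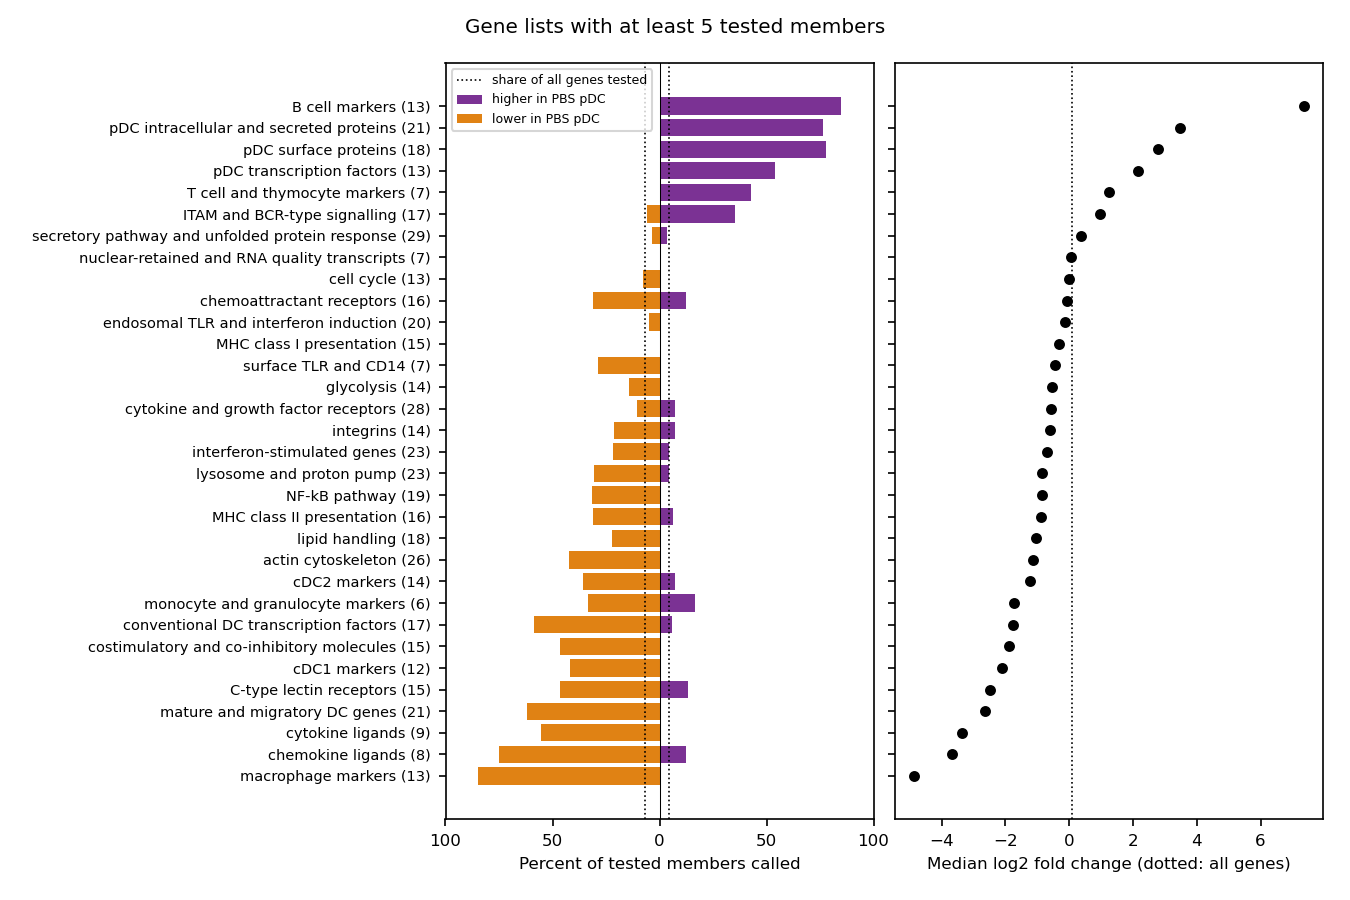
Left, percent of tested members of each list that were higher (purple) or lower (orange) in pDCs, with dotted lines at the shares of all genes tested, 4.54% and 6.89%. Right, median log2 fold change of each list, with a dotted line at the median of all genes. The pDC and B cell lists stand at the top, and macrophage markers, chemokines and cytokines at the bottom.

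Outside the lists, the naming rule took genes by fitted fold change and left out predicted genes, antigen receptor segments and olfactory receptors. Those below were at 0 in the other subset, so their order by fold was not measured. Those higher in pDCs included Cmya5, Jakmip1, Prr5, Amigo2, Gzmc and Il34. Jakmip1, a Janus kinase binding protein, had 76.5 and 141 CPM in pDCs and 0 in both Sirpa+ DC libraries, at least 26.8-fold higher. Amigo2, an adhesion molecule, had 44.6 and 57.9 CPM in pDCs and 0 in both Sirpa+ DC libraries, and the granzyme gene Gzmc, which has near copies, 76.5 and 41.7 CPM in pDCs and 0 in both Sirpa+ DC libraries. Cmya5 had 593 and 275 CPM in pDCs and 0 in both Sirpa+ DC libraries, with 31.4% of its exon length under an opposite gene. Those lower in pDCs included Adcy6, Mmp25, Slco5a1, Eps8, Mmp12 and Olfm1. Mmp25, a membrane-anchored metalloproteinase, had 224 and 233 CPM in Sirpa+ DCs and 0 in both pDC libraries, at least 44.9-fold higher in Sirpa+ DCs. Mmp12, the macrophage elastase, had 118 and 95.7 CPM in Sirpa+ DCs and 0 in both pDC libraries, and Eps8, an actin capping protein, 135 and 109.7 CPM in Sirpa+ DCs and 0 in both pDC libraries. Slco5a1, an organic anion transporter, had 186 and 171 CPM in Sirpa+ DCs and 0 in both pDC libraries.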

How the data were processed

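RNA-seq was run on sorted thymic DCs, with TRIzol extraction and the Ovation SoLo kit from 5 ng of total RNA, per the labels' protocols. The deposited files hold raw counts per gene symbol for each sample, not normalised by the authors. The submitters' processing notes name bcl2fastq 2.17 and mm10. Aligner, counter, annotation and strand: not given in the sources used here, as far as these labels and files go. The 5 summary lines of each file, 98.4% to 99.5% of the records of these 4 libraries, were left out.

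Genes passing edgeR's filterByExpr (8141) were scaled by TMM and tested by glmQLFit and glmQLFTest (edgeR 4.0.16, R 4.3.3), with 1 group mean for each of the 3 groups and all 6 libraries fitted together. The call was a Benjamini-Hochberg adjusted p below 0.05. CPM used the filtered, TMM-scaled library sizes. A gene at 0 in a subset is given against 3 counts over both libraries. With 1 to 3 counts, the ratio of summed counts has an exact binomial 95% interval. GENCODE M21 (GRCm38) matched 93.0% of 23420 symbols and gave coordinates and opposite-strand genes.

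The members and 36 gene lists were chosen with earlier results of these data known. Named genes were the called genes without overlap and with a mean of 20 CPM or more in 1 subset that had the 20 largest positive and 20 largest negative fitted fold changes (leaving out predicted genes, antigen receptor segments and olfactory receptor genes), the 6 list members with the smallest p, defining genes of each list and the sort markers. Fewer are printed. Of 618 listed symbols, 145 were not tested or not matched. Promoter motifs were searched in the 250 bases before the start of 6127 tested genes. Alternatives were other scalings, no filter, a 10 CPM filter, DESeq2 1.42.0, limma-voom (limma 3.58.1), the 4 libraries alone, a replicate block and each library left out. Restriction to genes with no opposite-strand gene, also without PBS pDC replicate 1, and removal of Rn45s, Malat1, Neat1, Xist and Tsix were added after the data were seen. Tables were made with pandas 2.3.3 and scipy 1.17.1, and figures with matplotlib 3.10.9 (Python 3.11.15).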

Additional observations from a re-analysis of the deposited data

How the results depend on the processing

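The count of genes called, 931, moved to 580 when only the 4 libraries were fitted, with the higher calls at 203, and 578 of the 580 were among the 931. Leaving out 1 library gave 214 to 1297 calls, 69 to 660 of them higher and 145 to 715 lower in pDCs, the lowest without PBS Sirpa+ DC replicate 2. A subset then left with 1 library is assumed to vary like the others. Other settings, including DESeq2 (851) and limma-voom (814), gave 741 to 1235. Of the 931 calls that could be fitted under each setting, 0 changed sign. Of the calls of 163 named genes, 97 were lost without PBS Sirpa+ DC replicate 2, 65 without replicate 1 and 25 without PBS pDC replicate 2. Without PBS pDC replicate 1, 2 were lost (Ccl4 and Tmem150c) and 12 gained. With DESeq2-type size factors or upper quartile scaling in edgeR, 0 were lost. Deviations of same-numbered libraries correlated at 0.30 between PBS pDC and PBS Sirpa+ DC. They correlated at -0.12 between YG+ pDC and PBS pDC, and at -0.10 between YG+ pDC and PBS Sirpa+ DC. Whether replicate numbers pair the compared libraries cannot be told from these values. With a replicate block 942 genes passed, 379 higher and 563 lower, and among named genes Ccnb2 lost its call. Depth limits genes under about 19.1 CPM in PBS pDC replicate 1.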

Other observations

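Counts per kilobase of exon allow genes to be ordered within a subset. Among protein-coding genes with no opposite-strand gene, Cd74 and Actb ranked 1 and 2 in both subsets by mean CPM per kilobase. Bst2 ranked 3 in pDCs and 28 in Sirpa+ DCs, and Tyrobp 4 and 40 (4 and 12 in pDC replicates 1 and 2). Ly6d ranked 17 in pDCs, and Plac8 29 against 594. Rac2, a small GTPase of blood cells, ranked 38 against 1142. In the other direction Apoe ranked 4 in Sirpa+ DCs and 36 in both pDC libraries, and Fscn1 ranked 10 in Sirpa+ DCs and 312 and 475 in pDC replicates 1 and 2. The pDC libraries disagreed widely for Lyz2 (5 in Sirpa+ DCs, 159 and 1153 in pDCs), S100a4 (12, against 193 and 3632) and C1qa (19, against 1710 and 3497).

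Opposite-strand neighbours often moved together. Of 131 called genes with a tested gene over their exons on the other strand, 63 had that gene called in the same direction and 2 in the opposite direction. Supt16, a histone chaperone subunit opposite Rpgrip1, had 5529.8 and 2134 CPM in pDCs and 114 and 99.7 CPM in Sirpa+ DCs, and Nme7, opposite Atp1b1, 1537 and 678 CPM in pDCs and 16.9 and 31.9 CPM in Sirpa+ DCs. Among tested genes with no such neighbour 12.5% were called, and 9.78% of those with one. The olfactory receptor genes Olfr164 and Olfr112, which the naming rule leaves out as a family and which are named after their values were seen, were called, with 2347 and 1185 CPM in pDCs and 0 and 3.99 CPM in Sirpa+ DCs and 1371 and 648 CPM in Sirpa+ DCs and 0 in both pDC libraries. No annotated gene lies over either on the opposite strand.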
